A study of Homo sapiens with 6 samples.

Results

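Caspases and the proteins that hold them in check were followed in parent MDA-MB-231 cells and in their Adriamycin-resistant derivative, ADRr. The 8 genes were taken by symbol from the count table of 58735 genes: the inflammatory caspases CASP1 and CASP4, the initiator caspases CASP8 and CASP9, the inhibitor of apoptosis (IAP) genes BIRC2, BIRC3 and XIAP, and CFLAR, the decoy of caspase-8. All 8 were among the 15242 genes with enough counts to be tested, CASP1 only through its counts in ADRr cells. MDA-MB-231 is an established triple-negative breast cancer cell line, and its parent group carried no drug selection and is labelled as wild type. ADRr cells were selected from it in rising doses of Adriamycin (ADR, doxorubicin), a drug that traps topoisomerase II and breaks DNA, and cloned from single cells by limiting dilution, so a clone's own features and resistance cannot be told apart. No dose at harvest is given in the sources used here. Each group had 3 libraries of polyadenylated RNA with total counts from 15983985 to 18272314, and the 3 time points that the series text mentions are not named for any library. Nothing in the labels says that the libraries came from separate cultures, so the p-values measure the spread between these libraries, which may be technical.

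Caspases are cysteine proteases made as inactive precursors. Initiator caspases are switched on inside large complexes, caspase-8 below death receptors and caspase-9 on the apoptosome that cytochrome c nucleates, and they cut the executioner caspases that take the cell apart. Inflammatory caspases instead process interleukins and gasdermins, which opens the membrane in pyroptosis. IAP proteins oppose this: XIAP binds and blocks active caspases, whereas the cIAPs encoded by BIRC2 and BIRC3 are ubiquitin ligases that keep RIPK1 in a survival complex and feed NF-κB signalling. CFLAR encodes FLIP, which resembles caspase-8 without its catalytic activity. All of these proteins are controlled after translation as well, and the counts measure RNA only.

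BIRC3 and BIRC2 lie side by side in the same orientation on chromosome 11, with 7807 bases between them, and their RNAs moved in opposite directions. Their upstream sequences are shown because the pair share an ancestor and a neighbourhood but not a direction of change. BIRC3 is a known NF-κB target gene. Both windows are RefSeq promoter sequence on GRCh38.p14, plus strand, from base -220 to base -81 before the RefSeq start, 140 bases each, at chr11:102317264-102317403 for BIRC3 and chr11:102346994-102347133 for BIRC2, and neither overlaps an exon of GENCODE 29. Capitals mark matches to the κB consensus, the site bound by NF-κB dimers, on either strand.
BIRC3: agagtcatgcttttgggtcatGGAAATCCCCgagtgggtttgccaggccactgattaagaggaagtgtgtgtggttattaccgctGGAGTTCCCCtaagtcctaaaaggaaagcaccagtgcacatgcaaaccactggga
BIRC2: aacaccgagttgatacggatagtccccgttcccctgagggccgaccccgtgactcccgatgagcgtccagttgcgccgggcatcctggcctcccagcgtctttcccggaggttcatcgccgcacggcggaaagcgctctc

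Promoter sequences were matched for 7 of the 8 genes, all but CASP1, and 1 start was read per gene. The 250 bases read for CFLAR (chr2:201118466-201118715), CASP4 (chr11:104968575-104968824) and CASP9 (chr1:15524216-15524465) lie inside the annotated span of the gene. Matches or their absence therefore hold for the start that was read. In the 250 bases before the start, BIRC3 held 2 κB matches, which begin at bases -199 and -135, and CFLAR held 1 (GGGGAATTCC at -97). BIRC2, XIAP, CASP4, CASP8 and CASP9 held none. Over 27305 promoters of the same length, 9.57% held at least 1 such match and 1.61% held 2 or more. The STAT element known as GAS (TTCNNNGAA, which reads the same on both strands) occurred once, in the CASP8 window at base -200, and in 6.78% of all promoters. These matches describe letters in the sequence and not binding, and their part in any change of RNA was not tested.

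The comparison of ADRr with parent cells asked which genes differ once resistance is established. A gene was called at a Benjamini-Hochberg adjusted p of at most 0.05 in edgeR's quasi-likelihood test and a fold change of at least 1.2. All 8 genes were called, 6 higher and 2 lower in ADRr cells. Across all tested genes 58.8% were called, 29.2% higher and 29.6% lower. The median log2 fold change was 0.60 for the 8 genes and -0.01 for all tested genes. The 8 genes were chosen with earlier results of these data known, so these numbers do not describe the family. CASP1 is among the 6 higher and was tested only through its counts in ADRr cells. The 3 ADRr libraries lay clear of the 3 parent libraries for 7 of the 8 genes, and for 69.2% of all tested genes. The changes of CASP1, CASP4 and BIRC3 were at least 2-fold, and those of the other 5 genes were smaller.

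**Figure D1:**
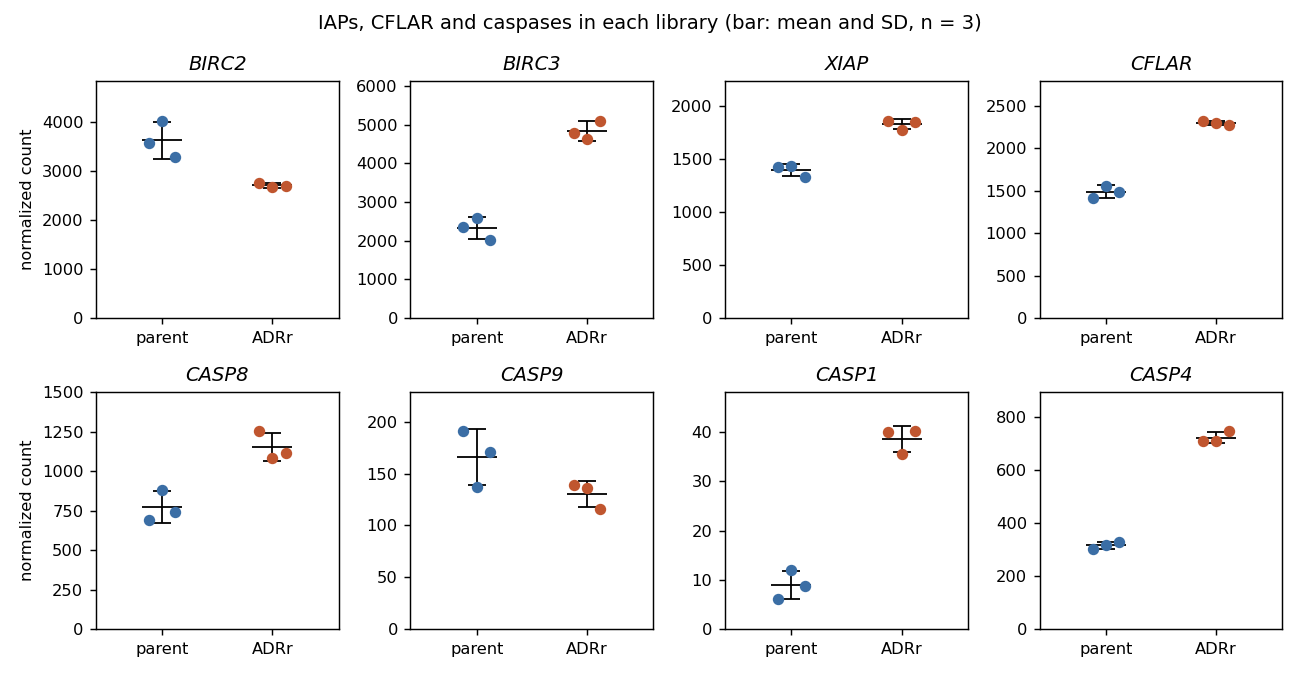
Normalized counts (vertical axis from 0, a different scale in each panel) of the 8 genes in the 3 parent and 3 ADRr libraries, with 1 point per library and a bar for mean and SD. The groups overlap only for CASP9, and BIRC2 is the gene whose ADRr libraries all lie lower.

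BIRC3 (ENSG00000023445, chr11:102317450-102339403, plus strand) encodes cIAP2. Its normalized counts were 2352, 2588 and 2030 in parent replicates 1 to 3 and 4778, 4617 and 5102 in ADRr replicates 1 to 3. Every ADRr library was well above every parent library. BIRC3 rose from 2323 ± 281 to 4832 ± 247 (SD, n = 3 libraries each), a 2.08-fold change (log2 1.06, standard error 0.068, adjusted p = 4.5e-12).

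BIRC2 (ENSG00000110330, chr11:102347211-102378670, plus strand) encodes cIAP1, the close relative of cIAP2. It had 3569, 4032 and 3285 normalized counts in the parent libraries and 2758, 2667 and 2707 in the ADRr libraries. The ADRr values were tightly grouped below the lowest parent value. BIRC2 fell by 0.42 on the log2 scale (standard error 0.0623, adjusted p = 3.3e-06), from 3629 ± 377 to 2711 ± 45.7.

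Set against each other per length in the same library, BIRC3 stood at 0.397, 0.387 and 0.372 of the BIRC2 FPKM in the parent libraries and at 1.04, 1.04 and 1.14 of it in the ADRr libraries. In parent cells the cIAP1 transcript was thus the more abundant of the pair per length, and in ADRr cells the cIAP2 transcript was level with it or above. The FPKM divides by all annotated exons together, 7518 bases for BIRC3 and 4532 for BIRC2. Their longest coding transcripts hold 5197 and 4066 bases, so the level of the ratio depends on the length used. The log2 ratio differed by 1.48, with p = 0.1 in an exact two-sided permutation test, the smallest p that 3 libraries against 3 can give.

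XIAP (ENSG00000101966, chrX:123859724-123913979, plus strand), the IAP that inhibits caspases directly, had 1430, 1434 and 1332 normalized counts in parent cells and 1865, 1777 and 1856 in ADRr cells. The groups were separate, and the change was the smallest of the 6 increases. XIAP rose 1.31-fold (log2 0.39, standard error 0.0585, adjusted p = 3.8e-06).

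CFLAR (ENSG00000003402, chr2:201116104-201176687, plus strand) had 1415, 1563 and 1492 normalized counts in parent cells and 2328, 2300 and 2277 in ADRr cells. The 3 ADRr libraries nearly coincided. CFLAR rose 1.55-fold (log2 0.63, standard error 0.0571, adjusted p = 1.8e-09). Of its exonic bases, 10.1% lie opposite exons of CFLAR-AS1 and a pseudogene, and without a stated strand setting such reads cannot be told apart. CFLAR-AS1 itself had a mean of 24.6 normalized counts in parent and 35.8 in ADRr cells. CFLAR has 18 annotated coding transcripts, and counts per gene do not separate the long and short forms of FLIP.

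CASP8 (ENSG00000064012, chr2:201233443-201287711, plus strand), 56755 bases beyond CFLAR, encodes the initiator caspase of death receptors. Its normalized counts were 689, 884 and 742 in parent cells and 1254, 1087 and 1115 in ADRr cells. The lowest ADRr library lay above the highest parent library. CASP8 rose 1.49-fold (log2 0.58, standard error 0.0831, adjusted p = 2.1e-06).

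The initiator and its decoy rose by similar amounts. The ratio of CFLAR to CASP8 FPKM was 0.66, 0.569 and 0.646 in parent libraries and 0.597, 0.68 and 0.656 in ADRr libraries, so the ranges overlapped. The means were 0.625 ± 0.0492 and 0.644 ± 0.0429 (SD, n = 3 each), a log2 difference of 0.05 (exact two-sided permutation test, p = 0.6). Without parent replicate 2 the difference was -0.02. The FPKM divides by all annotated exons together, 22529 bases for CFLAR and 7243 for CASP8. Their longest coding transcripts hold 14672 and 2930 bases, so the level of this ratio also depends on the length used. No shift of the ratio was detected at this number of libraries, where the test cannot give a p below 0.1. This does not show that the ratio is the same.

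CASP9 (ENSG00000132906, chr1:15490832-15526534, minus strand), the initiator of the apoptosome, had 191, 137 and 171 normalized counts in parent cells and 139, 136 and 116 in ADRr cells. Parent replicate 2 lay between the ADRr libraries, so the groups overlapped. The fitted change was -0.36 on the log2 scale (adjusted p = 0.035, standard error 0.146). This call did not hold without parent replicate 1 (-0.25, adjusted p = 0.18), parent replicate 3 (-0.34, 0.06), ADRr replicate 2 (-0.39, 0.054) or ADRr replicate 3 (-0.28, 0.15), nor in DESeq2 (-0.36, adjusted p = 0.12), and over all alternatives the adjusted p ran from 0.0042 to 0.23.

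CASP4 (ENSG00000196954, chr11:104942866-104969436, minus strand) encodes the caspase that senses cytosolic lipopolysaccharide and cuts gasdermin D. It had 303, 318 and 328 normalized counts in parent cells and 712, 709 and 747 in ADRr cells. Replicates agreed closely in both groups. CASP4 rose 2.28-fold (log2 1.19, standard error 0.0824, adjusted p = 1.6e-11).

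CASP1 (ENSG00000137752, chr11:105025443-105035250, minus strand), the caspase of the canonical inflammasome and activator of interleukin-1β, lies 56006 bases beyond CASP4. Its raw counts were 6, 11 and 9 in the parent libraries and 42, 34 and 43 in the ADRr libraries. The gene was barely detected in parent cells and low, but well above that, in all ADRr libraries. CASP1 rose 4.29-fold (log2 2.10, standard error 0.359, adjusted p = 2.1e-05), the largest change of the 8 genes and the least precise. On log2(FPKM + 1) without a filter its change was 0.49, since the pseudocount exceeds its FPKM. Its neighbour CARD16, a near copy of the first exons of CASP1 that encodes a decoy of it, had 10, 10 and 8 counts in parent and 20, 20 and 36 in ADRr libraries, and reads from these near-identical copies may have been split or dropped in counting.

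CASP1 and IL1B are typical of leukocytes, so leukocyte markers were read beside them. Of 9 such markers, 7 stayed under 1 CPM (the count scaled to library size) in every library, and their summed level was 8.53 to 12.2 CPM in parent and 7.57 to 8.14 CPM in ADRr cells. TYROBP had 0 counts in every library and PTPRC, which marks all leukocytes, at most 2. CD53, ITGAM and LCP2 had 0 counts in each parent library and 1 to 4, 6 to 7 and 3 to 5 counts in the ADRr libraries. CD14 and CSF1R were above 1 CPM. CD14 changed by -0.16 (adjusted p = 0.46) and CSF1R by -1.31 (adjusted p = 1.1e-04). Among 8 markers read for the line itself, PGR had 0 counts in every library and ESR1 1 count in a single library. ERBB2, the remaining receptor of the triple-negative label, was detected, with a mean FPKM of 11.4 in parent and 4.83 in ADRr cells. The mesenchymal markers VIM (97.7 and 66.5 FPKM) and CD44 (83.7 and 146 FPKM) were abundant, as was the epithelial keratin KRT18 (78.4 and 50.0 FPKM), whereas EPCAM (4.88 and 10.5 FPKM) and CDH1 (2.34 and 1.12 FPKM) stood at lower levels per length than these. Between the groups, CD44 and EPCAM were called higher and VIM, ERBB2, KRT18 and CDH1 lower.

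Compared per length, the 8 genes kept most of their order between the groups. In parent cells the mean FPKM was 45.8 for BIRC2, 17.7 for BIRC3, 8.86 for XIAP, 6.09 for CASP8, 3.78 for CFLAR, 2.49 for CASP4, 1.81 for CASP9 and 0.138 for CASP1. No neighbours in this order had overlapping libraries. In ADRr cells the mean FPKM was 36.9 for BIRC3, 34.3 for BIRC2, 11.6 for XIAP, 9.12 for CASP8, 5.86 for CFLAR, 5.71 for CASP4, 1.42 for CASP9 and 0.598 for CASP1. There, BIRC3 at 35.1 to 39.0 lay just above BIRC2 at 33.7 to 34.9, and the libraries of CFLAR and CASP4 overlapped. The FPKM divides by the length of all annotated exons together. This is 7256 bases for CASP4, 7243 for CASP8 and 22529 for CFLAR. Their longest coding transcripts hold 2158, 2930 and 14672 bases, so the order between genes depends on the length used, in both groups.

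**Figure D2:**
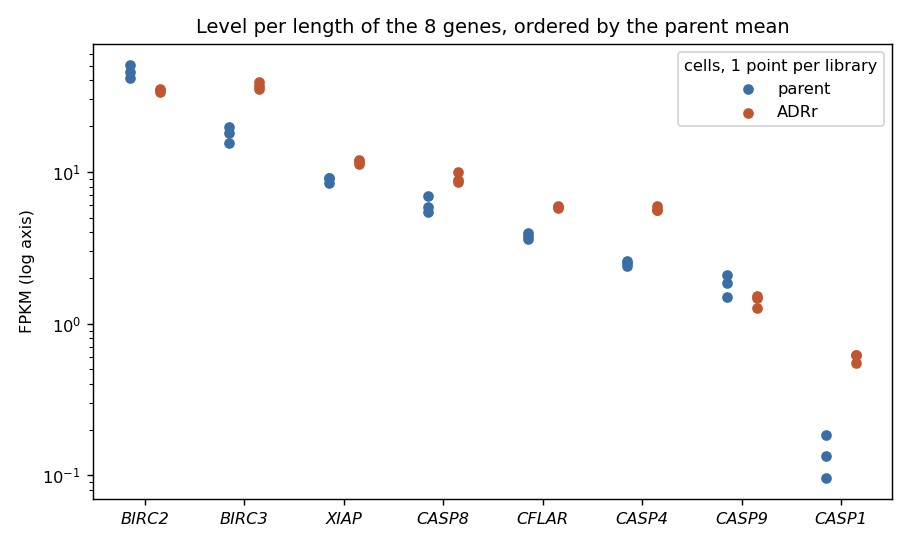
FPKM (log axis) of the 8 genes, with 1 point per library, ordered by the parent mean. BIRC2 leads in parent cells at a mean of 45.8, BIRC3 in ADRr cells at 36.9, and CASP1 is lowest in both at 0.138 and 0.598.

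Of 6 other caspases examined, 3 were tested and 2 called lower, and since some caspases are not reported here these counts do not describe the whole family. CASP6, an executioner that cuts nuclear lamins, went from 325, 368 and 342 normalized counts in the parent libraries to 138, 153 and 137 in the ADRr libraries. It fell by 1.27 on the log2 scale (standard error 0.11, adjusted p = 8.2e-10).

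CASP2, an initiator linked to DNA damage and to errors of cell division, had 1279, 1367 and 1270 normalized counts in parent and 505, 498 and 489 in ADRr cells. The 3 ADRr libraries lay far below the parent libraries, and CASP2 fell by 1.39 on the log2 scale (standard error 0.0693, adjusted p = 4.9e-14). CASP10, the relative of CASP8 that lies between it and CFLAR, changed by -0.30 (standard error 0.149, adjusted p = 0.084) and was not called. CASP5 had 0 counts in the parent libraries and 0 to 3 in the ADRr libraries, CASP12 had 0 throughout, CASP14 had at most 2 counts, and none of them was tested.

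**Figure D3:**
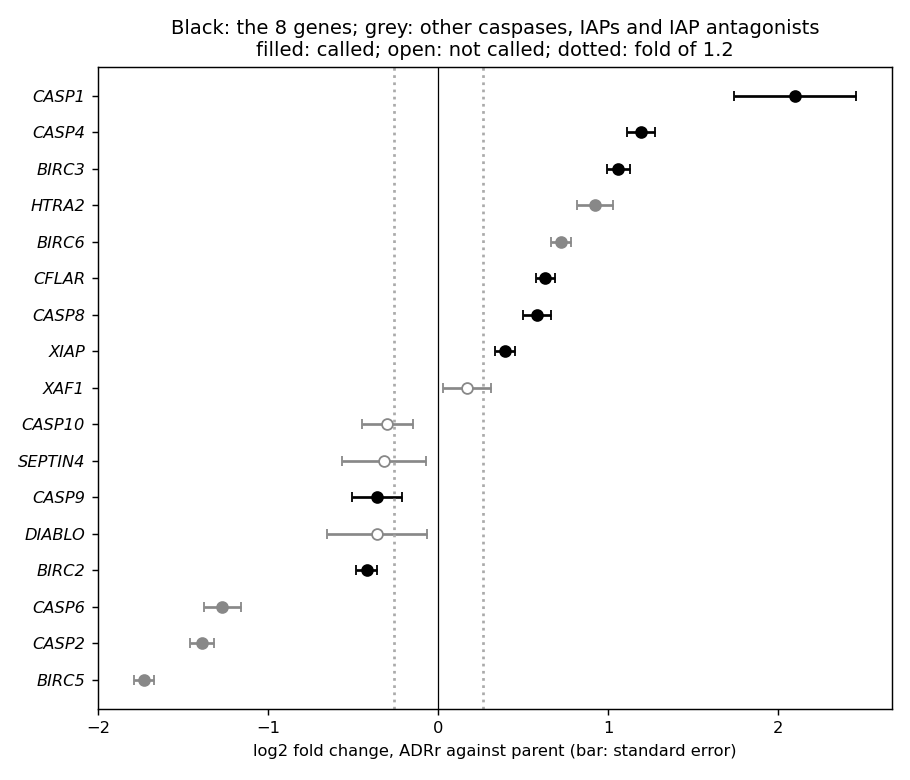
Log2 fold changes of ADRr against parent cells with standard errors, for the 8 genes (black) and other caspases, IAPs and IAP antagonists (grey), filled where called. CASP1 at 2.10, CASP4 at 1.19 and BIRC3 at 1.06 lead, and BIRC5 at -1.73, CASP2 at -1.39 and CASP6 at -1.27 stand at the other end.

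Of 9 other IAPs and IAP antagonists, 6 were tested, 2 called higher and 1 lower. BIRC6, a giant IAP and ubiquitin-conjugating enzyme, rose by 0.72 (standard error 0.0595, adjusted p = 3.5e-10), with 1489, 1421 and 1312 normalized counts in parent and 2259, 2351 and 2348 in ADRr cells. BIRC5, which encodes survivin and acts mainly in mitosis, had 3021, 2785 and 2997 in parent and 891, 915 and 846 in ADRr cells. It fell by 1.73 on the log2 scale (standard error 0.0602, adjusted p = 8.1e-17). All 5 proliferation markers, MKI67, CCNB1, CDK1, PLK1 and AURKB, were called lower as well, and their summed level was 1255 to 1317 CPM in parent and 605 to 631 CPM in ADRr cells. The part of cell division in the BIRC5 and CASP2 changes was not tested.

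Among the proteins that relieve IAPs, HTRA2 rose by 0.92 (standard error 0.106, adjusted p = 8.7e-08), but 36.9% of its exonic bases lie opposite exons of AUP1 and LOXL3. DIABLO (-0.36, adjusted p = 0.29) and SEPTIN4 (-0.32, adjusted p = 0.27) were not called. DIABLO shares 29.6% of its exonic bases on its own strand with AC048338.1 and with another entry under the symbol DIABLO. Only the DIABLO entry with the most counts was read, so its count is uncertain. XAF1, which binds XIAP, changed by 0.17 (adjusted p = 0.30), and 38.3% of its exonic bases lie opposite PRAL. BIRC7, BIRC8 and NAIP were too low to be tested.

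Beyond these families, 7 lists of the surrounding pathway held 78 genes with the caspase and IAP lists included. Of the 66 tested, 23 were called higher and 19 lower, which is 34.8% and 28.8%, near the shares over all genes. Their median log2 fold change was 0.04.

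The death receptor list had 12 tested genes, 4 called higher and 4 lower, with a median of 0.11. The signalling receptors for TRAIL rose, TNFRSF10A by 1.57 (adjusted p = 2.4e-15) and TNFRSF10B by 0.92 (adjusted p = 1.6e-13). FAS, another death receptor, rose by 0.91 (adjusted p = 1.3e-04). Of the decoy receptors, which bind TRAIL without passing on the death signal, TNFRSF10D was called lower (-0.30, adjusted p = 0.0039) and TNFRSF10C, at 6 to 15 counts a library, was not called (0.49, adjusted p = 0.37). CYLD, a deubiquitinase that acts on RIPK1, rose by 1.25 (adjusted p = 1.6e-14). The TRAIL gene itself, TNFSF10 (-0.68, adjusted p = 9.5e-07), the TNF receptor TNFRSF1A (-0.63, adjusted p = 4.7e-09) and FADD, the adaptor that brings CASP8 to the receptor (-0.45, adjusted p = 8.7e-04), changed the other way. RIPK1, the kinase that cIAPs mark with ubiquitin, had a log2 fold change of 0.15 (adjusted p = 0.047), below the fold threshold.

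Of 12 cIAP partners in NF-κB signalling, all tested, 4 were called higher and 2 lower, with a median of -0.01. TRAF1, an adaptor that binds cIAPs, rose by 3.21 (adjusted p = 1.9e-21), from 538 ± 9.16 to 4979 ± 57.1 normalized counts (SD, n = 3 each). TNFAIP3 (A20), a deubiquitinase, rose by 1.40 and RBCK1 (HOIL-1), a subunit of the linear ubiquitin ligase, by 1.24. TRAF2, the adaptor through which cIAPs join receptors, changed by -0.33 (adjusted p = 1.9e-04) and CHUK by -0.28 (adjusted p = 0.0055). MAP3K14 (NIK), the kinase whose protein cIAPs degrade, rose by 0.44 (adjusted p = 1.0e-05).

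In the apoptosome list of 8 tested genes, 4 were called higher and 1 lower, with a median of 0.17. APAF1, the scaffold on which caspase-9 is activated, fell by 0.78 on the log2 scale (adjusted p = 1.9e-08), from 742 ± 52.9 to 431 ± 23.0 normalized counts. CYCS, which encodes cytochrome c, rose by 0.34 (adjusted p = 1.7e-05), MCL1 by 0.45 (adjusted p = 4.0e-08) and BAK1 by 0.42 (adjusted p = 1.1e-05).

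The inflammasome list had 15 tested genes, 6 called higher and 4 lower, with a median of 0.04. IL1B, a substrate of caspase-1, rose by 3.78 (adjusted p = 1.2e-20), with raw counts of 319, 330 and 272 in parent and 4510, 4092 and 4727 in ADRr libraries. GSDMC rose by 1.51 (adjusted p = 0.0023) and CARD16 by 1.35 (adjusted p = 0.0049), both from low counts. GSDME (0.53, adjusted p = 1.6e-07), NLRP1 (0.55, adjusted p = 6.2e-08) and AIM2 (0.56, adjusted p = 0.032) were also called higher. IL18, the other classical caspase-1 substrate, changed by -0.89 (adjusted p = 4.2e-06), and GSDMB (-0.90, adjusted p = 0.0094) and CARD8 (-0.69, adjusted p = 7.3e-07) were also called lower. GSDMD, the pore protein that caspase-1 and caspase-4 cut, was lower too, at -0.63 (adjusted p = 4.0e-07). PYCARD, the adaptor that links sensors to CASP1, had a log2 fold change of 0.04 (adjusted p = 0.86).

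Of 10 caspase substrates tested, 3 were called higher and 5 lower, with a median of -0.29. LMNB1 fell by 2.03 on the log2 scale (adjusted p = 5.7e-18), DFFB by 0.82 (adjusted p = 0.011, with groups that overlapped) and LMNA by 0.65 (adjusted p = 6.6e-10). PAK2 (0.76), ROCK1 (0.62) and STK4 (0.62), kinases that caspases cut, rose.

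The 4 genes on chromosome 11 form 2 clusters, and their neighbours were read with them. Within 1000000 bases of BIRC2 and BIRC3, 9 other genes were tested, 2 called higher and 1 lower, with a median of 0.04. MMP1 rose most (7.35, adjusted p = 2.9e-20) and DYNC2H1 was lower (-0.51, adjusted p = 4.9e-04). MMP1 had a mean of 11.4 normalized counts in parent and 1921 in ADRr cells. Near CASP1 and CASP4 there were 2 tested neighbours, CARD16 and MSANTD4 (0.41, adjusted p = 6.8e-05), both called higher. Around CFLAR and CASP8, 24 neighbours were tested, 6 called higher and 9 lower with a median of -0.17, from CDK15 (-2.70) to MPP4 (2.12), beside 29.2% higher and 29.6% lower over all tested genes. Near CASP9, 12 of 25 neighbours were called higher and 5 lower with a median of 0.27, led by FAM131C (1.49) and ANO7L1 (1.48). Counts were low for FAM131C (mean normalized counts of 4.44 in parent and 12.7 in ADRr cells), ANO7L1 (16.4 and 45.8) and MPP4 (5.99 and 27.1). Both tested neighbours of XIAP, THOC2 (-0.43) and STAG2 (-0.36), were lower while XIAP rose.

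**Figure D4:**
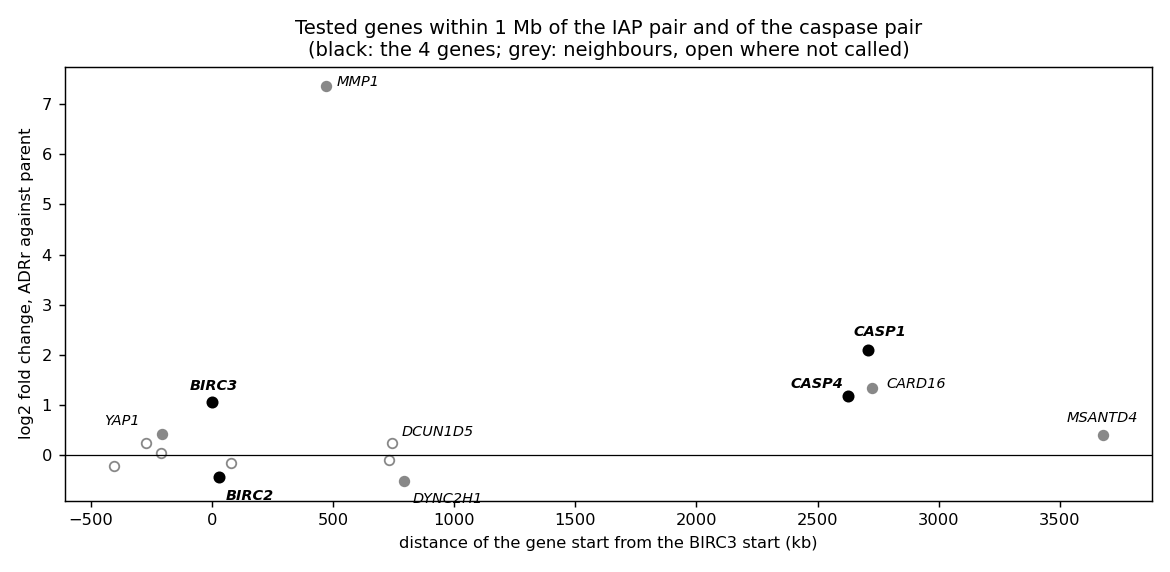
Log2 fold change of ADRr against parent cells for tested genes around the 4 genes on chromosome 11, against the distance of each start from the BIRC3 start in kb. BIRC3 at 1.06 and BIRC2 at -0.42 are adjacent, and MMP1 stands apart at 7.35.

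Among protein-coding genes, the patterns nearest to CASP1 over the 6 libraries, by Euclidean distance of centred log2 CPM, were those of ACOXL (0.282), SCG2 (0.322) and TIPARP (0.353). Nearest to BIRC2 were TMED2 (0.0482), OXR1 (0.0642) and ZNF91 (0.0651). With 2 groups, such distances mainly reflect the size of the difference between them.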

How the data were processed

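Both kinds of value used were deposited for each gene and library, raw counts and the FPKM that the authors computed from them by gene length and depth. By the study's methods, polyadenylated RNA was sequenced as paired-end reads, cleaned with Novogene scripts, mapped with HISAT2 and counted with featureCounts. The submitters' processing notes name HISAT2 2.0.5, featureCounts 1.5.0-p3, fastp and DESeq2 1.20.0 on GRCh38. Strandedness is not given in the sources used here. All 58735 identifiers and lengths equal those of GENCODE 29.

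Counts of genes kept by filterByExpr (15242) were scaled by TMM and compared with edgeR 4.0.16 in R 4.3.3 (quasi-likelihood test, Benjamini-Hochberg over all tested genes). Normalized counts are TMM-scaled to the mean library. The standard error is the log2 fold change divided by the root of F. For a gene at 0 the upper limit was set at 3 counts, 0.164 to 0.188 CPM by library, which covers counting error only. Ratios used the deposited FPKM. Alternatives used DESeq2 1.42.0 and limma 3.58.1. Named were the 8 genes, the caspases and IAPs listed, the largest called changes of each list (up to 3 each way), the nearest patterns and up to 2 called neighbours a cluster. RIPK1, FAS, TNFRSF10C, TNFRSF10D, MAP3K14, PYCARD, GSDMD, GSDME, NLRP1 and AIM2 were named outside this rule, after their values were seen. The genes and lists were chosen with earlier results of these data known. One symbol turned into a date (SEPTIN4) was matched by identifier. Some genes first listed are not reported here and were left out of the list counts, and they stayed in the fit.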

Additional observations from a re-analysis of the deposited data

How the results depend on the processing

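Of the 8 genes, 6 were called higher, and 5 under the settings that drop CASP1. The number called lower, 2, became 1 with DESeq2 and with limma-trend on FPKM (pseudocount 1, with and without the filter, and 0.1), and was 1 to 2 with each library left out, CASP9 being the gene lost. Under a stricter fold threshold of 1.2 on the log2 scale, 1 of the 8 genes was higher and 0 lower (CASP1 remained), list genes numbered 8 higher and 4 lower, and all genes 1114 higher and 972 lower. No gene of the 8 changed direction under any alternative. CASP1 gave no value with at least 10 counts in every library or with the FPKM filter. The log2 difference of the CFLAR to CASP8 ratio was -0.02 to 0.10 with each library left out and became -0.02 without parent replicate 2, and that of BIRC3 to BIRC2 kept its direction. With the replicate block 6 genes were higher and 2 lower, and no call among the 8 changed. Same-numbered libraries did not deviate together (correlations of 0.00735, -0.0213 and -0.0457), so the numbers were not treated as pairs. Depth limits CASP1 most, with 6 to 11 counts in parent libraries.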
